A study of Mus musculus with 15 samples.

Results

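The genes described here are 10 antioxidant targets of the transcription factor NRF2 in mouse liver: Nqo1, Hmox1, Gclc, Gclm, Txnrd1, Srxn1, Gsr, Slc7a11, Cbr3 and G6pdx. They were found in the deposited expression table by matching its Ensembl gene IDs to mouse gene symbols, and all 10 were among its 54281 IDs. Their levels were followed in RNA sequencing of liver from 15 C57BL6J mice, all males of 9.5 months, in 4 groups. The question put by the design is what a fatty, carcinogen-exposed liver and the drug MCOPPB, an agonist of the nociceptin receptor studied for its action on senescent cells, do to the liver transcriptome.

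The disease model combined diethylnitrosamine (DEN), a liver carcinogen, at 25 mg/kg when the mice were 2 weeks old, with 32 weeks of a high fat diet (HFD) that drew 60% of its energy from lard. Chow mice received the vehicle of DEN and a chow diet, and the labels give no group with DEN alone or HFD alone, so the 2 cannot be told apart. Mice were injected intraperitoneally with saline or with MCOPPB at 5 mg/kg, for 5 days with 2 days off, in 3 cycles over 21 days. The groups were chow with saline (n = 3), chow with MCOPPB (n = 5), DEN/HFD with saline (n = 4) and DEN/HFD with MCOPPB (n = 3). No genotype or transgene separates them.

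NRF2 is held in the cytoplasm by KEAP1, which marks it for degradation. Electrophiles and oxidants modify KEAP1, NRF2 then enters the nucleus, pairs with a small MAF protein and binds the antioxidant response element near its targets, while BACH1 competes for the same element. The targets make and regenerate glutathione, run the thioredoxin system, reduce quinones and carbonyls, degrade heme and supply NADPH, and in liver they protect hepatocytes from reactive drug metabolites.

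Levels are given as normalized counts, which were obtained by inverting the deposited variance-stabilised log2 values and are estimates. Differences and their moderated standard errors (SE) are on the deposited log2 scale, where changes of genes with few reads are compressed. A gene was called where the Benjamini-Hochberg adjusted p of limma was under 0.05 over the 11568 genes with enough signal. Estimated depth ranged from 9.32 to 18.7 M assigned reads per library, and 12.0% to 31.0% of the signal was mitochondrial. The first of 2 RNA integrity numbers in the labels was 9 to 9.7 in the chow saline and 9.9 to 10 in the chow MCOPPB group. In the DEN/HFD saline and DEN/HFD MCOPPB groups it was 8.4 to 9.2 and 8.7 to 9.2, so it was mostly lower with DEN/HFD. It was also higher in every chow MCOPPB liver than in any chow saline liver. The second was 8.9 to 9.6 over all libraries. Chow saline library 2 had the fewest detected genes, 13863, and the lowest level of its group in 8 of the 9 tested targets. DEN/HFD saline library 4 was lowest of its group in 6 of 9. Results that rest on these 2 libraries are given with and without them below.

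Of the 10 targets, 9 entered the test. Slc7a11 did not: the filter asked for 22.5 normalized counts in at least 3 libraries, and it reached that in 1, chow saline library 2 (33.4), with 5.66 as its next value. Cbr3 entered through 3 DEN/HFD libraries alone (34.5, 66.5 and 36.6 normalized counts), so its inclusion itself depended on high DEN/HFD values. Its differences and p values with DEN/HFD, and its place in counts of targets below, are therefore descriptions that support nothing. Compared per kilobase of exon over all 15 libraries, Gclc was the most abundant transcript at 519 ± 184 normalized counts per kb (SD, n = 15). Gsr at 201 ± 49.9, Gclm at 192 ± 43.8 and Srxn1 at 187 ± 108 followed and lay within each other's spread, as did Txnrd1 at 119 ± 22.5, Nqo1 at 89.6 ± 45.2 and Hmox1 at 86.7 ± 51.3. Cbr3 at 12.6 ± 14.6 and G6pdx at 12.5 ± 5.11 were far lower, and Slc7a11 was at 0.221 ± 0.614.

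**Figure D1:**
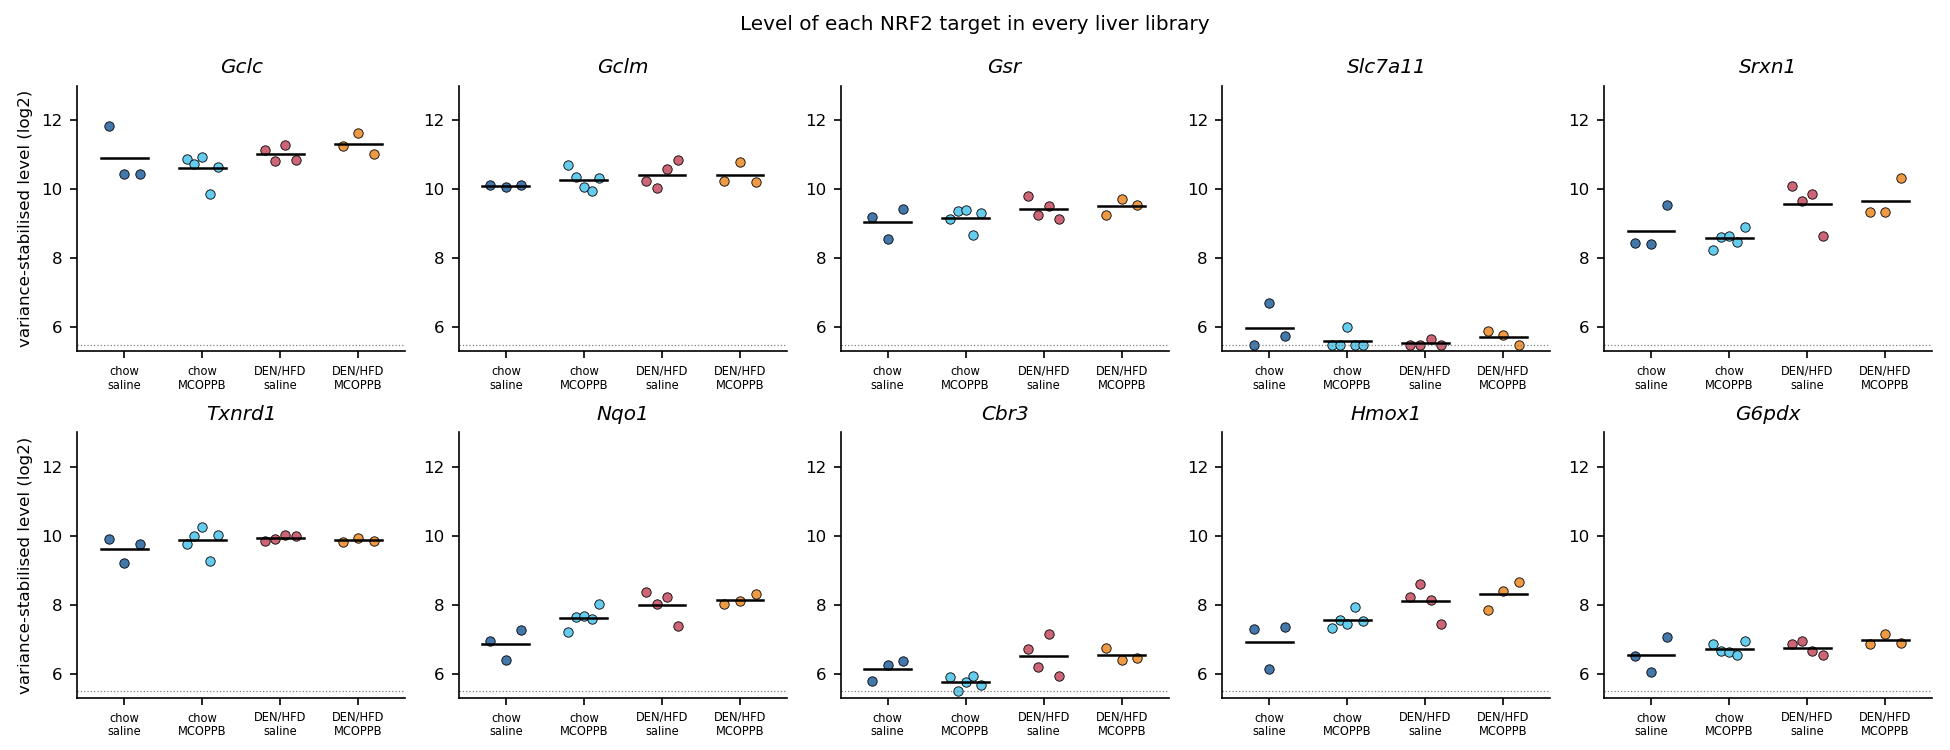
Deposited variance-stabilised log2 level (vertical axes, the same range in every panel) of the 10 targets in each of the 15 libraries, by group. Points are libraries, bars are group means and the dotted line is the lowest value of the table, which stands for 0 reads; for Nqo1, Hmox1 and Srxn1, DEN/HFD saline library 4 (87.8, 96.3 and 314 normalized counts) lies below the other 6 DEN/HFD libraries.

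Nqo1 and Hmox1 were the targets called higher with DEN/HFD over both treatment arms, and each call was lost in 8 of 15 fits without 1 library. Srxn1 had a larger difference (0.94) than Nqo1 (0.81) and was not called. Nqo1 averaged 93.9 ± 50.0 normalized counts in 8 chow livers and 191 ± 52.5 in 7 DEN/HFD livers, and Hmox1 averaged 92.2 ± 42.7 and 220 ± 80.9 (SD). The 9 tested targets all had a positive difference, from 0.16 (Txnrd1) to 0.95 (Hmox1), with a median of 0.41, where 49.6% of all tested genes were positive and their median was -0.00. With the first RNA integrity number as a covariate, Gclc (-0.19) and Gclm (-0.024) turned negative. Of the 9, 2 were called higher and none lower, where 1.32% of all tested genes were called (0.743% higher). None of the 9 separated all chow from all DEN/HFD libraries, which 0.207% of genes did upward.

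Nqo1 (ENSMUSG00000003849.8, chr8:107388225-107403206, minus strand, GRCm38) encodes the quinone reductase that turns quinones into hydroquinones with NADPH. Chow saline livers held 49.3, 18.8 and 77.1 normalized counts and chow MCOPPB livers 71.2, 119, 123, 115 and 179. DEN/HFD saline livers held 246, 176, 217 and 87.8, and DEN/HFD MCOPPB livers 180, 194 and 234. Chow saline livers were the lowest group, the lowest DEN/HFD liver lay above all 3 of them, and 4 of the 5 chow MCOPPB livers lay within the DEN/HFD range. With DEN/HFD, Nqo1 rose by 0.81 ± 0.18 (log2 difference ± SE, adjusted p = 0.0327).

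Hmox1 (ENSMUSG00000005413.8, chr8:75093621-75100589, plus strand) encodes heme oxygenase 1, which splits heme into biliverdin, iron and carbon monoxide, and macrophages that take up red cells also express it. Chow saline livers held 81.8, 8.86 and 87.1 normalized counts and chow MCOPPB livers 84.6, 109, 95.5, 164 and 107. DEN/HFD saline livers held 215, 303, 200 and 96.3, and DEN/HFD MCOPPB livers 148, 257 and 321. Of the 7 DEN/HFD livers, 5 lay above every chow liver, and DEN/HFD saline library 4 and DEN/HFD MCOPPB library 1 overlapped with chow MCOPPB. With DEN/HFD, Hmox1 rose by 0.95 ± 0.21 (adjusted p = 0.0325).

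Srxn1 (ENSMUSG00000032802.8, chr2:152105516-152111376, plus strand) encodes sulfiredoxin, which repairs overoxidised peroxiredoxins. Chow saline livers held 265, 257 and 657 normalized counts and chow MCOPPB livers 222, 309, 313, 271 and 399. DEN/HFD saline livers held 1011, 727, 850 and 314, and DEN/HFD MCOPPB livers 567, 561 and 1186. The groups overlapped through chow saline library 3, which lay above 2 DEN/HFD MCOPPB livers, and through DEN/HFD saline library 4. The difference with DEN/HFD, 0.94 ± 0.23, was as large as that of Hmox1 but missed the threshold (adjusted p = 0.0533). Srxn1 was called in 6 of the 11 other ways of processing or sets of libraries and in 2 of the 15 fits that left out 1 library.

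The adjusted p values lay close to the threshold, and each call was lost in 8 of the 15 fits that left out 1 library. The adjusted p of Nqo1 passed 0.05 when chow saline library 1 or 2, chow MCOPPB library 1, DEN/HFD saline library 1, 2 or 3, or DEN/HFD MCOPPB library 2 or 3 was left out, at 0.0522, 0.0592, 0.0605, 0.0716, 0.0670, 0.0628, 0.0695 and 0.0930 in that order. That of Hmox1 did so without chow saline library 2, chow MCOPPB library 1 or 3, DEN/HFD saline library 1, 2 or 3, or DEN/HFD MCOPPB library 2 or 3, at 0.0529, 0.0573, 0.0513, 0.0716, 0.0654, 0.0599, 0.0735 and 0.104. The differences themselves moved less, between 0.68 and 0.88 for Nqo1 and between 0.75 and 1.08 for Hmox1. Srxn1 passed without chow saline library 3 (1.11 ± 0.22, adjusted p = 0.0269) or without DEN/HFD saline library 4 (1.09 ± 0.20, adjusted p = 0.00571). Without both chow saline library 2 and DEN/HFD saline library 4, a choice made after seeing the data, Nqo1 at 0.75 ± 0.15 (adjusted p = 0.0135), Hmox1 at 0.84 ± 0.15 (adjusted p = 0.00731) and Srxn1 at 1.01 ± 0.20 (adjusted p = 0.0124) were called. Cbr3, which the filter let in through DEN/HFD libraries, was at 0.71 ± 0.17 there. With the first RNA integrity number as a covariate the differences were 0.82 ± 0.29 for Nqo1 (adjusted p = 0.482), 0.87 ± 0.34 for Hmox1 (adjusted p = 0.494) and 0.81 for Srxn1 (adjusted p = 0.539), and no target was called. Its part in the result cannot be told apart from DEN/HFD.

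**Figure D2:**
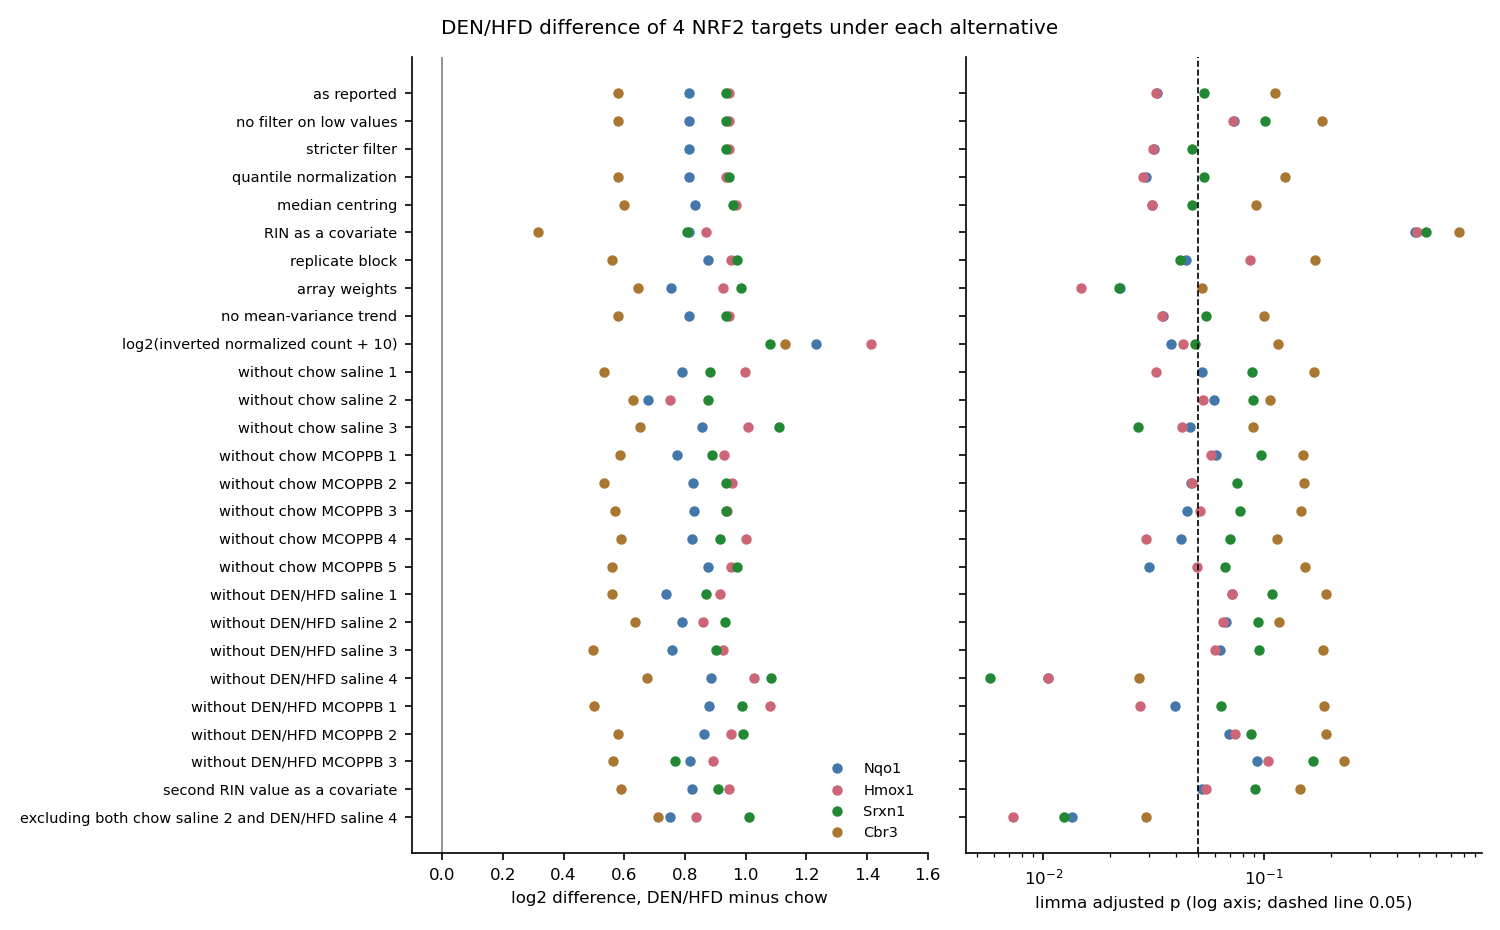
DEN/HFD minus chow over both treatment arms (left, log2 difference) and its limma adjusted p (right, log axis, dashed line at 0.05) for Nqo1, Hmox1, Srxn1 and Cbr3, with a line for each way of processing or set of libraries. All differences lie above 0, from 0.31 for Cbr3 with the first RNA integrity number (RIN) as a covariate to 1.41 for Hmox1 on the log2(normalized count + 10) scale, while the adjusted p values fall on both sides of the dashed line.

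Cbr3 (ENSMUSG00000022947.8, chr16:93683215-93690990, plus strand), a carbonyl reductase, was near the limit of detection on chow. Chow saline livers held 2.10, 13.3 and 17.6 normalized counts and chow MCOPPB livers 3.75, 0, 1.75, 4.24 and 0.847. DEN/HFD saline livers held 34.5, 11.4, 66.5 and 4.25, and DEN/HFD MCOPPB livers 36.6, 18.5 and 21.6. All 5 chow MCOPPB livers lay below the lowest DEN/HFD liver, but by a negligible margin, 4.24 against 4.25 normalized counts. The saline groups overlapped. The difference with DEN/HFD was 0.58 ± 0.18 (adjusted p = 0.111), and it was 1.13 on the log2(normalized count + 10) scale, where low levels are compressed less.

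The glutathione branch differed by less. Gclc (ENSMUSG00000032350.9, chr9:77754535-77794485, plus strand), the catalytic subunit of the rate-limiting enzyme of glutathione synthesis, stood at 1314, 1322 and 3543 normalized counts in chow saline livers and at 854, 1534, 1615, 1795 and 1857 in chow MCOPPB livers. DEN/HFD saline livers held 1710, 1755, 2161 and 2392, and DEN/HFD MCOPPB livers 1998, 2342 and 3122. The highest of all 15 values belonged to a chow liver, chow saline library 1. Over both arms the difference was 0.41 ± 0.22 (adjusted p = 0.373), 0.64 without chow saline library 1, and -0.19 with the first RNA integrity number as a covariate.

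Gclm (ENSMUSG00000028124.15, chr3:122245557-122270732, plus strand), the modifier subunit of that enzyme, averaged 1116 ± 213 normalized counts in chow and 1311 ± 317 in DEN/HFD livers, a difference of 0.22 ± 0.15 (adjusted p = 0.509). Its exons overlap those of Gm17494 on the opposite strand and of the pseudogene Gm6061 on the same strand, and whether counting used strand is not given in the sources used here, so its level is uncertain. Gsr (ENSMUSG00000031584.16, chr8:33652523-33698163, plus strand), the reductase that returns oxidised glutathione to its thiol form, averaged 490 ± 119 and 629 ± 124, a difference of 0.35 ± 0.16 (adjusted p = 0.278). DEN/HFD saline library 4, lowest of its group for Nqo1, Hmox1 and Srxn1, had the highest Gclm level of all libraries, 1760 normalized counts.

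Slc7a11 (ENSMUSG00000027737.10, chr3:49892526-50443614, minus strand), the cystine importer that feeds glutathione synthesis, was barely detected. Chow saline livers held 0, 33.4 and 1.35 normalized counts, and of the 5 chow MCOPPB livers 4 were at 0 and library 3 held 5.66. DEN/HFD saline livers held 0, 0, 0.604 and 0, and DEN/HFD MCOPPB livers 3.41, 1.81 and 0. The single appreciable value was that of chow saline library 2, the library in which 8 other targets were lowest of their group. Exact two-sided permutation tests of its 4 group comparisons gave p between 0.286 and 0.571 (adjusted over the 4 comparisons, 0.524 to 0.571). With groups of 3 to 5 livers and 9 of 15 values at 0, these tests could show little.

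In the thioredoxin branch, Txnrd1 (ENSMUSG00000020250.10, chr10:82833951-82897712, plus strand), which reduces thioredoxin, averaged 813 ± 214 normalized counts in chow and 882 ± 54.5 in DEN/HFD livers. Chow livers spread from 503 to 1146 and DEN/HFD livers from 826 to 966, and the difference was 0.16 ± 0.15 (adjusted p = 0.649). G6pdx (ENSMUSG00000031400.10, chrX:74409483-74429194, minus strand), which makes NADPH in the pentose phosphate pathway, averaged 33.6 ± 17.0 and 43.8 ± 13.3, a difference of 0.23 ± 0.14 (adjusted p = 0.457). Its exons overlap those of Ikbkg on the opposite strand, whose level was far higher (8.69 on the deposited log2 scale, against 6.54 to 6.97 for the G6pdx group means), so the level of G6pdx is uncertain as well.

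The promoters of these genes were searched for the core of the antioxidant response element, TGACNNNGC, on both strands in the 300 bases around each start site, to show where the letters that NRF2 is known to bind occur. RefSeq promoters (GRCm38.p6) were at hand for 7 of the targets, with 9 start sites. The core was in 4 of these 9 promoters, in 1 each of 4 targets, where it was in 12.4% of all 32851 mouse promoters. The 250 bases before the start site follow for those 4, with the core in capitals. For Srxn1 the capitals mark TGANTCA, the AP-1 element that can lie inside an antioxidant response element and was in 7.81% of promoters, because its core match, GCTAGGTCA, begins 28 bases after the start site. None of the 4 core matches overlapped TGANTCA.
Srxn1, chr2:152105274-152105523, plus strand: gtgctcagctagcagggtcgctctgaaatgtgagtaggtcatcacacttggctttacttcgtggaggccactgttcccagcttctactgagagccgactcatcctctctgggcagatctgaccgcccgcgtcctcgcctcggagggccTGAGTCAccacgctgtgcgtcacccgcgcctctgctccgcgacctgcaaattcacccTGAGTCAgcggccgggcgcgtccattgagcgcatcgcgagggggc
Gclm, chr3:122245307-122245556, plus strand: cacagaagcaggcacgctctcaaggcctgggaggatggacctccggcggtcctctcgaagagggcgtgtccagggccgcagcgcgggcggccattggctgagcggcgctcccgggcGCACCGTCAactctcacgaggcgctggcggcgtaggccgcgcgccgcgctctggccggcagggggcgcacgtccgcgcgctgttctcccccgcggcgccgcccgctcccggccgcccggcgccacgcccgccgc
Txnrd1, chr10:82858956-82859205, plus strand: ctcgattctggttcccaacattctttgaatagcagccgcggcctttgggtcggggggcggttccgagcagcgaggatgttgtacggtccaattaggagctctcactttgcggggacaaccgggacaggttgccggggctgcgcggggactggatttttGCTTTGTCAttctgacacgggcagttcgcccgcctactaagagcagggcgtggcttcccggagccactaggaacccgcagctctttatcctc
G6pdx, chrX:74428881-74429130, minus strand: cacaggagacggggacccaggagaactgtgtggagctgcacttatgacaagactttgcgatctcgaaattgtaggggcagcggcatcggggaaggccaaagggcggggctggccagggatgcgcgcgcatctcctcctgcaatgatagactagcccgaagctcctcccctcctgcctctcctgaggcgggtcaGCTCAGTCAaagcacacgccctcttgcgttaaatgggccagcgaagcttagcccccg
Srxn1 held TGAGTCA at 2 places, with 95 and 38 bases between it and the start site, and the nearer is followed by GC. That longer form, TGANTCAGC, looked for after the sequence had been seen, was in 1.19% of promoters and in no other target. Gclm held GCACCGTCA, the core read from the opposite strand, 125 bases before its start site. Txnrd1 held GCTTTGTCA 83 bases before the second of its 3 start sites, and G6pdx held GCTCAGTCA 48 bases before its own. Neither form occurred in these windows of Nqo1, Cbr3 and Slc7a11. A match describes letters only.

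Among saline-treated livers alone, DEN/HFD differed from chow by 1.12 ± 0.25 for Nqo1 (adjusted p = 0.145) and by 1.17 ± 0.30 for Hmox1 (adjusted p = 0.181). Both genes had all 4 DEN/HFD livers above all 3 chow livers, as 4.73% of tested genes did upward. No target was called by limma, where 0.0519% of genes were, and 3 of 9 had an unadjusted p under 0.05 (Nqo1, Hmox1 and Srxn1), against 11.0% of genes. The quantile-normalized fit also called none of them. All 9 differences were positive, with a median of 0.35, where 51.4% of genes were positive. Without DEN/HFD saline library 4, Nqo1 at 1.33 ± 0.23 (adjusted p = 0.0208) and Hmox1 at 1.39 ± 0.30 (adjusted p = 0.04995) were called. Without chow saline library 2, Nqo1 stood at 0.89, Hmox1 at 0.76, Srxn1 at 0.58, Txnrd1 and Gsr both at 0.12, and G6pdx turned to -0.033.

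Among MCOPPB-treated livers, the order of the targets was another. Srxn1 differed by 1.09 ± 0.33 (adjusted p = 0.154) and Cbr3 by 0.78 ± 0.24 (adjusted p = 0.177), followed by Hmox1 at 0.74 ± 0.29 (adjusted p = 0.293), Gclc at 0.69 ± 0.30 (adjusted p = 0.338) and Nqo1 at 0.53 ± 0.24 (adjusted p = 0.365). The 3 DEN/HFD livers lay above all 5 chow livers for Nqo1, Gclc, Srxn1 and Cbr3, as 4.63% of genes did upward. For Nqo1 the margin was slight, 180 normalized counts in the lowest DEN/HFD liver against 179 in the highest chow liver. No target was called by limma or by the quantile-normalized fit, where limma called 0.571% of genes, and 5 of 9 had an unadjusted p under 0.05, against 12.3% of genes. All 9 differences were positive, with a median of 0.53, where 49.4% of genes were positive. With the first RNA integrity number as a covariate Gclc (-0.10), Gsr (-0.21) and G6pdx (-0.14) turned negative, and Nqo1 and Hmox1 stood at 0.18 and 0.34. Srxn1 was called (adjusted p = 0.0470) when chow saline library 2 and DEN/HFD saline library 4, which lie outside these groups, were left out of the shared estimate of spread.

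**Figure D3:**
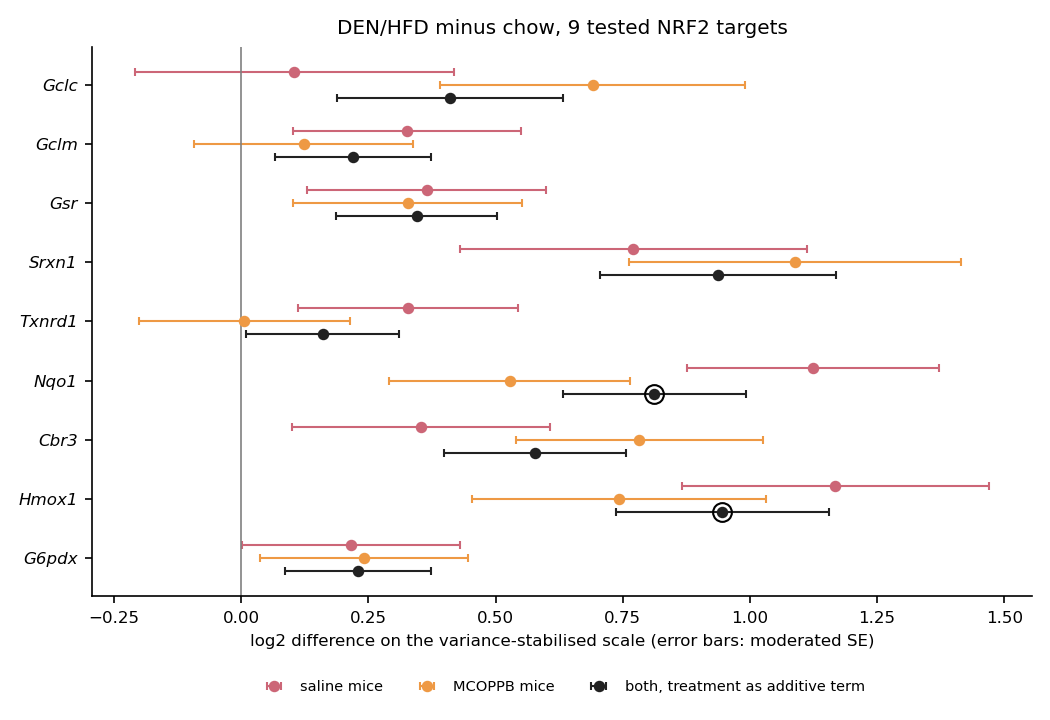
DEN/HFD minus chow (log2 difference, horizontal axis; error bars are moderated SE) for the 9 tested targets in saline livers, in MCOPPB livers and over both arms. All differences lie above 0, and circles mark the called genes, Hmox1 and Nqo1, and over both arms Hmox1 (0.95), Srxn1 (0.94) and Nqo1 (0.81) lie farthest to the right.

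MCOPPB on chow was followed by no called change of a target. The first RNA integrity number did not overlap between these groups (9 to 9.7 with saline, 9.9 to 10 with MCOPPB), and its part cannot be told apart from that of MCOPPB. Nqo1 had the largest difference, 0.75 ± 0.24 (adjusted p = 0.276, unadjusted p = 0.00532), with 4 of 5 MCOPPB livers above all 3 saline livers and the other, at 71.2 normalized counts, below chow saline library 3 at 77.1. Hmox1 differed by 0.63 ± 0.29 (adjusted p = 0.545), and by 0.23 without chow saline library 2, whose 8.86 normalized counts were the lowest Hmox1 level of all 15 libraries. Without that library the difference of Nqo1 was 0.52. Of 9 differences 6 were positive, where 50.1% of genes were. Cbr3, Gclc and Srxn1 had negative differences, -0.39 ± 0.24, -0.30 ± 0.30 and -0.22 ± 0.33, and the other 4 lay between 0.12 and 0.24. The highest of these 4, Txnrd1 at 0.24, ran from 0.028 to 0.39 when 1 library was left out. limma called no target, where it called 0.320% of genes, and 2 of 9 had an unadjusted p under 0.05, against 9.06% of genes. The quantile-normalized fit called none either. The groups overlapped for all 9, where 2.64% of genes had all MCOPPB livers above all saline livers.

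MCOPPB under DEN/HFD gave differences of the targets that lay within about 1 SE of 0. Of 9, 7 were positive, where 49.3% of genes were. Differences ran from -0.08 ± 0.22 (Txnrd1) to 0.29 ± 0.31 (Gclc), with Nqo1 at 0.16 ± 0.25 and Hmox1 at 0.20 ± 0.30, and every adjusted p was 0.9998. No target was called by limma or by the quantile-normalized fit, none had an unadjusted p under 0.05 (4.74% of genes had), and limma called 0.0259% of all genes. All 9 overlapped between the groups, where 3.22% of genes lay wholly higher with MCOPPB. These intervals are wide: an SE of 0.25 for Nqo1 does not show that the drug left its level as it was.

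The difference between the 2 drug responses was tested as an interaction. It was -0.60 ± 0.34 for Nqo1 (adjusted p = 0.836), whose response was the larger on chow, and 0.59 ± 0.43 for Gclc (adjusted p = 0.876). It was 0.43 ± 0.35 for Cbr3 (adjusted p = 0.877) and -0.43 ± 0.42 for Hmox1 (adjusted p = 0.886). Leaving out 1 library at a time gave -0.80 to -0.36 for Nqo1 and -0.64 to -0.022 for Hmox1. limma called no target and 0.0692% of genes, and no target had an unadjusted p under 0.05, as 5.90% of genes had. The interaction was positive for 4 of 9 targets and for 49.4% of genes. The fit with quantile normalization called none. The drug response was therefore not shown to differ between the diets for any target. Over both diets 6 of 9 differences were positive, as were 50.0% of genes. Nqo1 differed by 0.47 ± 0.18 (adjusted p = 0.561) and Hmox1 by 0.43 ± 0.21 (adjusted p = 0.785). Without 1 library at a time these differences ran from 0.32 to 0.54 and from 0.21 to 0.55. No target was called by either fit, and limma called 0.372% of genes. At an unadjusted p under 0.05 stood 1 target, Nqo1, against 6.50% of genes. None had all MCOPPB livers above all saline livers, as 0.0432% of genes did.

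**Figure D4:**
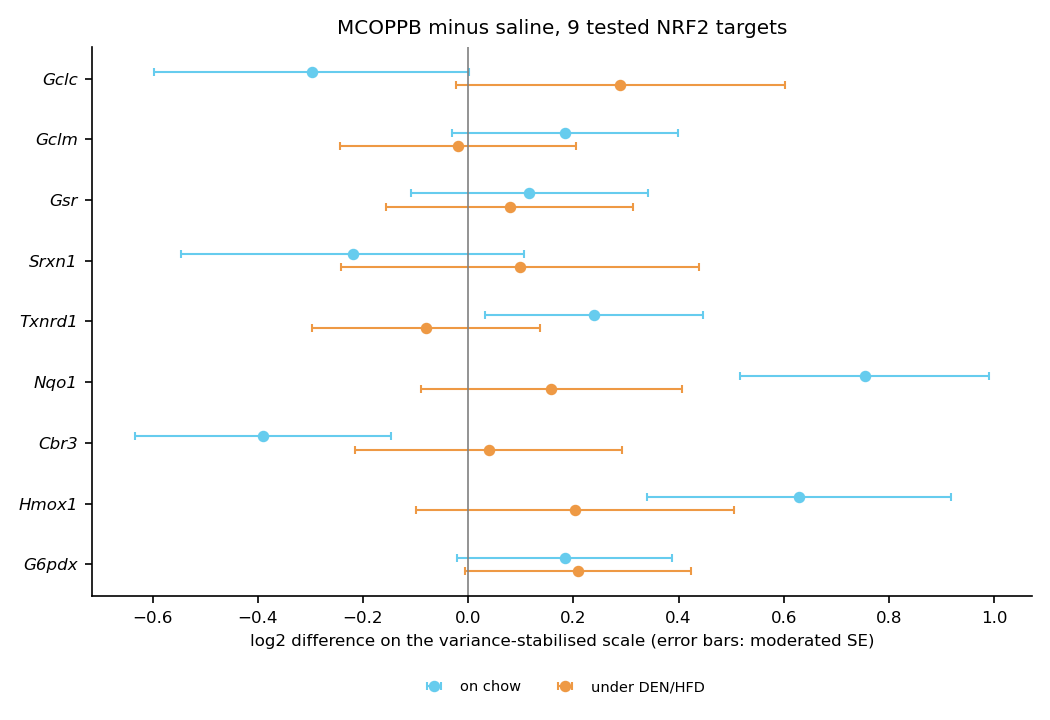
MCOPPB minus saline (log2 difference, horizontal axis; error bars are moderated SE) for the 9 tested targets on chow and under DEN/HFD. Nqo1 (0.75) and Hmox1 (0.63) lie farthest from 0 on chow, and under DEN/HFD all 9 lie between -0.08 and 0.29.

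The factors that act on these genes were measured too. Nfe2l2, which encodes NRF2, differed with DEN/HFD by -0.02 ± 0.12 (adjusted p = 0.953), Keap1 by 0.20 ± 0.12 (adjusted p = 0.463) and Bach1 by -0.13 ± 0.15 (adjusted p = 0.716). Of the 10 regulators on the list, 6 had positive and 4 negative differences and none was called by limma, where 1.32% of all tested genes were called. Of the 10, 2 had an unadjusted p under 0.05, where 16.7% of all tested genes had, and the smallest p was that of the small MAF gene Mafg (-0.53 ± 0.16, adjusted p = 0.0974). NRF2 is controlled mainly at its protein, which these data do not measure.

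Other genes of the same defence, from lists of known function, were followed with DEN/HFD. Over both arms limma called 1.32% of all tested genes, and 49.6% had positive differences. Of 20 glutathione S-transferases, which conjugate electrophiles to glutathione, 13 had positive differences, Gsta1 rose by 1.78 ± 0.43 (adjusted p = 0.0476) and Gstt3 fell by 0.61 ± 0.14 (adjusted p = 0.0455). Gstt3 also rose with MCOPPB over both diets, by 0.68 ± 0.14 (adjusted p = 0.0476), where 0.372% of all tested genes were called. Gsta1 ranged from 13.2 to 1032 normalized counts within the DEN/HFD saline group. Of 22 tested genes for other phase 2 enzymes and transporters, 17 were positive and the carboxylesterase gene Ces2a fell by 0.98 ± 0.20 (adjusted p = 0.0233). Of 13 tested genes of the ATF4 amino acid response, a pathway that also controls Slc7a11, 9 were positive and Atf5 rose by 0.86 ± 0.16 (adjusted p = 0.0177). None was called among 11 genes of glutathione supply and use (8 positive; Mgst3 0.66 ± 0.21, adjusted p = 0.119), 14 of the thioredoxin and peroxiredoxin system (8 positive; Prdx3 0.63 ± 0.23, adjusted p = 0.159) and 11 of NADPH production (7 positive; Taldo1 0.53 ± 0.17, adjusted p = 0.113). None was called either among 13 of heme and iron handling (8 positive) and 4 superoxide and catalase genes (3 positive; Sod3 0.55 ± 0.18, adjusted p = 0.132). At an unadjusted p under 0.05 these 5 lists had 6, 2, 3, 2 and 1 genes, in either direction, against 16.7% of all tested genes. The glutathione S-transferases had 9 of 20, the other phase 2 enzymes and transporters 9 of 22 and the ATF4 amino acid response 2 of 13. Among MCOPPB-treated livers, limma called 0.571% of all tested genes with DEN/HFD. Alas1, the rate-limiting enzyme of heme synthesis, fell there by 2.03 ± 0.41 (adjusted p = 0.0289), beside a difference of 0.74 for Hmox1, which degrades heme. The 5 tested red blood cell transcripts all had negative differences there, with a median of -1.14. None was called by limma, and 4 had an unadjusted p under 0.05, against 12.3% of genes. In saline livers Alas1 differed by -0.11 ± 0.43 with DEN/HFD, and the red blood cell transcripts had a median of 0.05, with 3 positive and 2 negative. With MCOPPB on chow Alas1 differed by 0.85 ± 0.41, and these transcripts had a median of 0.82, with 4 positive and 1 negative. Of the 13 tested genes of the ATF4 list, 2 were called higher with DEN/HFD among MCOPPB-treated livers, Atf5 (1.27 ± 0.18, adjusted p = 0.00233) and Fgf21 (1.05 ± 0.21, adjusted p = 0.0258). By limma 3 of the 13 had an unadjusted p under 0.05, against 12.3% of genes.

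Markers of macrophages, cells that express Hmox1, were followed beside it. The summed level of 12 recruited macrophage markers was 663 to 941 normalized counts in chow saline, 718 to 1086 in chow MCOPPB, 594 to 2193 in DEN/HFD saline and 1166 to 2171 in DEN/HFD MCOPPB livers, and DEN/HFD saline library 4, which had the lowest Hmox1 of its group, held the 594. Of the 10 tested markers, all had positive differences with DEN/HFD, as 49.6% of tested genes had. Whether any marker of this or the lists below entered the test through DEN/HFD libraries alone, as Cbr3 did, was not checked. By limma 7 of the 10 had an unadjusted p under 0.05, against 16.7% of genes. Of the 10, 1 was called, where 1.32% of all tested genes were. It was Cd68, a lysosomal macrophage protein, which rose by 0.80 ± 0.17 (adjusted p = 0.0296). The summed level of 10 Kupffer cell markers was 1303 to 1548 in chow saline, 2281 to 4068 in chow MCOPPB, 2128 to 4590 in DEN/HFD saline and 2511 to 4894 in DEN/HFD MCOPPB livers. Of them 6 had positive and 4 negative differences with DEN/HFD, down to -0.86, where 49.6% of tested genes were positive. By limma 7 of the 10 had an unadjusted p under 0.05, in either direction, against 16.7% of genes. C1qc, a complement component made by Kupffer cells, was the 1 called and rose by 0.67 ± 0.16 (adjusted p = 0.0441). Among MCOPPB-treated livers 6 were positive and 4 negative with DEN/HFD, with Marco at -1.36 ± 0.50 and Cd163 at -1.19 ± 0.29, and none was called. With MCOPPB on chow, where the differences of Hmox1 and Nqo1 were positive, all 10 Kupffer markers had positive differences, as 50.1% of tested genes had. None of the 10 was called by limma, and 6 had an unadjusted p under 0.05, against 9.06% of genes. Among 9 tested stellate and fibroblast markers, 6 were positive and 3 negative with DEN/HFD, down to -0.35, so the list did not move together. By limma 4 of the 9 had an unadjusted p under 0.05, against 16.7% of genes, and the collagen gene Col1a2 rose by 1.06 ± 0.24 (adjusted p = 0.0370). None of the macrophage markers stood at 0 in all libraries of a group. In bulk liver, fewer or more cells of a type and less or more RNA per cell cannot be told apart, and the part of these cells in the levels of Hmox1 and Nqo1 was not tested. Summed levels of 9 hepatocyte markers overlapped between all 4 groups. limma called no marker of hepatocytes, neutrophils, lymphocytes, sinusoidal endothelium or cholangiocytes with DEN/HFD, and 2 of 9, 0 of 2, 1 of 2, 2 of 8 and 0 of 1 tested had an unadjusted p under 0.05, against 16.7% of all tested genes.

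**Figure D5:**
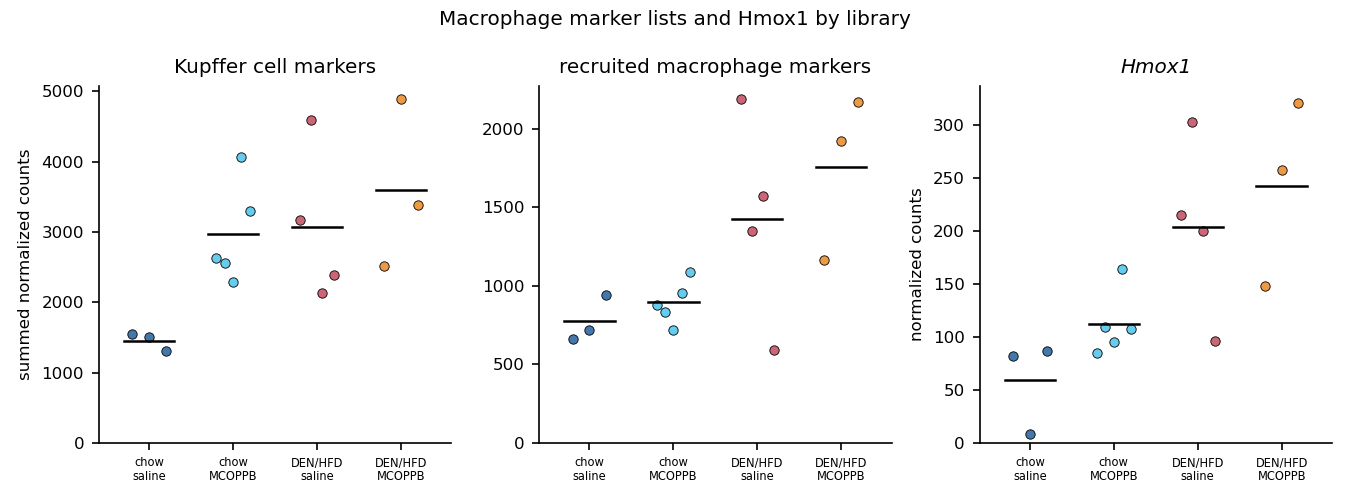
Summed normalized counts of the Kupffer cell and recruited macrophage marker lists and normalized counts of Hmox1 (vertical axes) by library and group; bars are group means. For recruited markers and Hmox1, DEN/HFD saline library 4 lies at the bottom of its group (594 and 96.3).

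Within groups the targets varied unequally. Over deviations from group means in the 15 libraries, which share each library's depth and scaling, the pair with the highest correlation of 36 was Nqo1 and Srxn1 (Pearson r = 0.87, Spearman rho = 0.85), and the lowest was that of Gclm and Srxn1 (r = -0.45, rho = -0.41). Nqo1 and Hmox1 stood at r = 0.70 (rho = 0.58), and Nqo1 and Gclc at r = 0.11 (rho = 0.08). Outside the lists, the genes most like Nqo1 were Rdh11 (r = 0.91, rho = 0.89), Elovl5 (r = 0.91, rho = 0.90) and Anxa7 (r = 0.90, rho = 0.94). Those most like Srxn1 were Sprr1a (r = 0.91, rho = 0.83), Anxa2 (r = 0.90, rho = 0.84) and Gpihbp1 (r = 0.90, rho = 0.80). Gclc was most like Tmem106b (r = 0.97, rho = 0.98), Capza2 (r = 0.94, rho = 0.86) and Atp6v1a (r = 0.89, rho = 0.90).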

How the data were processed

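RNA of 15 mouse livers was sequenced, with 250 ng of RNA per directional library and single reads of 75 nt, per the labels' protocols. Per the submitters' processing notes, Trimmomatic, STAR 2.7.0e, HTSeq and DESeq2 were used with GRCm38 (mm10); their settings are not given in the sources used here. The deposited values are DESeq2 variance-stabilised log2 levels made by the authors, for 54281 Ensembl IDs, with a shared lowest value of 5.49 that stands for 0 reads. The transformation was inverted to normalized counts. Below 20 reads, the inverted values fell within 0.01 of a whole number in 15.3% (lowest library) to 45.2% (highest) of cases, so reads were not recovered and depths are estimates. Symbols and positions came from GENCODE M21 (54107 IDs matched), and promoters from RefSeq.

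Genes at least 1 (log2) above the lowest value, or 22.5 normalized counts, in at least 3 libraries were tested (11568). limma 3.58.1 (R 4.3.3) fitted 4 group means over 15 libraries with a mean-variance trend and 11 residual degrees of freedom, and an additive model of diet and drug gave the differences over both arms. P values were adjusted by Benjamini and Hochberg over all tested genes, and the procedure was tested on simulated data. Diet comparisons in the 2 arms share no library, but the comparisons over both arms share all. The titles number each library as a mouse, and replicate numbers only name libraries.

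All 10 targets were named. Of the other lists, Nfe2l2, Keap1, Bach1 and the called genes were named, and otherwise the gene with the smallest p. The targets, lists and rules were chosen with earlier results of these data known. The motif first chosen for the promoters is 1 base longer than the core (TGA and GC, 5 bases apart). It was in 43.7% of promoters and in 6 of the 9 target promoters, those of Srxn1, Gclm, Txnrd1 and Cbr3. TGACNNNGC replaced it for the sequences shown. Alternatives were other filters, scalings, weights, covariates and sets of libraries.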

Additional observations from a re-analysis of the deposited data

Results flagged for a closer look

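Of 20 groups of 4 or 5 libraries examined for a library far from the rest of its group, 3 held one. Chance alone marks about 1 in 20 groups of spread-out values, a rate that says nothing of Slc7a11, for which any value above 0 stands apart when the rest are at 0. Chow MCOPPB library 4 had a Gclc level of 854 normalized counts, and the nearest of the other 4 was 1534, a gap of 0.750 of the group's range against a critical value of 0.71. Chow MCOPPB library 3 had a Slc7a11 level of 5.66 normalized counts where the other 4 were at 0, and DEN/HFD saline library 3 had 0.604 where the other 3 were at 0, so the gap was the whole range in both (1.00). The second of these lies below the level of 1 read.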

How the results depend on the processing

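Groups held 3 to 5 livers, and Cbr3, G6pdx and Slc7a11 had the lowest levels of the 10 targets; what either did to the calls was not tested. With DEN/HFD over both arms, 2 targets were called. Without the filter on low values, with the first RNA integrity number as a covariate and with the second (chosen after seeing the data), 0 were called; with neither chow saline library 2 nor DEN/HFD saline library 4 (also chosen after) 4 were called, Cbr3 among them, and leaving out 1 library at a time gave 0 to 4. In saline livers leaving out 1 library gave 0 to 2 called targets, and in MCOPPB livers excluding both named libraries gave 1; the other comparisons stayed at 0 throughout. The cause of these shifts was not tested, though leaving out the filter raises the genes tested from 11568 to 23148. With the replicate number as a block, Nqo1 (0.88, adjusted p = 0.0441) and Srxn1 (0.97 ± 0.20, adjusted p = 0.0414) were called and Hmox1 was not (0.95 ± 0.24, adjusted p = 0.0864); of 19 pairs with a shared number 5 correlated above 0.1 (mean -0.0273), against 17 of 64 others (mean 0.00838), so the numbers were not taken as pairing.

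Single differences were recomputed where they exceeded their own SE: 37 differences gave 971 values, of which 929 kept direction and side of the threshold, 23 lost and 13 gained a call and 6 turned. With the first RNA integrity number as a covariate, Gclc (-0.10), Gsr (-0.21) and G6pdx (-0.14) in MCOPPB livers and Gclc (-0.19) and Gclm (-0.024) over both arms turned negative with DEN/HFD. G6pdx in saline livers was -0.033 without chow saline library 2, the low end of a range up to 0.49. Adjusted p values over all alternatives ran from 0.0105 to 0.482 for Nqo1, 0.00731 to 0.494 for Hmox1 and 0.00571 to 0.539 for Srxn1 over both arms.

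Counts over all genes moved more. With DEN/HFD over both arms, 153 genes were called, against 0 and 81 with the first and second integrity number, 56 without the filter, 69 with the block, 392 with array weights, 456 without both named libraries and 6 to 460 without 1 library. In MCOPPB livers 66 became 0 to 285 (18 to 157 without 1 library), and in saline livers 6 became 1 to 14 (1 to 52). With MCOPPB, 37 on chow became 15 to 42 (13 to 50), 3 under DEN/HFD 0 to 8 (0 to 6), 43 over both diets 3 to 46 (25 to 42) and 8 for the interaction 2 to 10 (2 to 12). The fit on only the groups compared does not apply to the interaction or to both arms, and a fit on reads was not run because reads were not recovered.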
